A study of Mus musculus with 21 samples.

Results

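Of 45281 probes on a mouse expression array, 117 were bright both in cardiomyocytes (CM) made from pluripotent stem cells and in adult fibroblasts, and dim in the undifferentiated cells from which the CM were made. A probe was taken when it was detected (detection p under 0.01) on all 9 CM and fibroblast arrays and when, after quantile normalization without background correction, its mean log2 intensity in CM and in fibroblasts was at least 2 above that in undifferentiated cells of each line, with CM within 1.5 of fibroblasts. The levels in undifferentiated cells, CM and fibroblasts chose these probes, so levels and differences among these groups are given below as a description. For the members, tests are read only where EB, which chose no probe, enter the comparison. Of the 117 probes, 104 have 1 gene symbol and 13 have none in the platform annotation. The named probes belong to 80 genes, 19 of which have more than 1 probe in the set.

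The study profiled total RNA of 7 groups with 3 Illumina bead arrays each. ES samples are from the line aPIG D3 at passages 7, 9 and 10, and iPS samples from the line aPIG TiB7.4 at passages 5, 7 and 8, so each cell type stands for 1 line. Both lines carry a construct in which the promoter of the alpha myosin heavy chain gene, active in cardiomyocytes, drives puromycin resistance and green fluorescent protein. Each line was sampled undifferentiated, as whole untreated embryoid bodies (EB, the aggregates in which such cells differentiate spontaneously) on day 16, and as CM of the same batches, kept from day 9 in 8 µg/ml puromycin and likewise taken on day 16. Undifferentiated cells were grown with leukaemia inhibitory factor on inactivated embryonic fibroblast feeders. The fibroblasts were primary tail tip cells of mice aged 8 weeks, F1 of 129Sv x c57BL6, without the construct. The design text calls the 3 fibroblast arrays technical replicates while the labels give them passages 2, 3 and 4, and they entered the fit as 1 averaged sample.

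Heart muscle cells and fibroblasts both arise from mesoderm for the most part, and both build an actin cytoskeleton that carries force to the membrane and to the matrix outside. Smooth muscle actin is made by early cardiomyocytes as well as by fibroblasts that have turned contractile. Both cell types also secrete basement membrane and other matrix proteins, which need chaperones, isomerases and proteases of the secretory pathway on their way out of the cell.

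The labelled cell types carried their markers. All 22 cardiomyocyte genes of a marker list (sarcomere proteins such as Tnnc1 and Myh6) were detected on every ES CM array and at least 21 on every iPS CM array. In fibroblasts 3 of the 22 were detected, and 19 were detected on no fibroblast array. Of 17 fibroblast marker genes, all were detected in fibroblasts, 13 were detected on no ES CM array and 14 on no iPS CM array. Their summed intensity (linear, after background correction) was 24347 to 25094 in fibroblasts, 144 to 158 in ES CM and 113 to 163 in iPS CM. The median log2 intensity of the 117 probes lay between 9.12 and 9.30 in CM and between 9.08 and 9.20 in fibroblasts, while fibroblast marker genes were near background in CM. Of 8 smooth muscle markers, 5 were detected on no CM array, and Acta2, the brightest, is itself in the set. Of 8 blood markers, 4 (Tyrobp, Spi1, Cd34 and Ptprc) were detected on each fibroblast array, and all 8 were detected on no CM array. Their summed intensity in fibroblasts was 604 to 659, and mean Tyrobp log2 intensity there was 9.17. The part of blood cell RNA in the fibroblast signal was not tested. Arrays detected 13231 to 17866 probes each. Unless said otherwise, values below are log2 intensity after background correction and quantile normalization, in the order of replicates 1, 2 and 3.

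Among the cytoskeletal members, Acta2, the smooth muscle alpha actin gene, was measured by 4 probes of the set. The log2 intensity of its brightest probe was 13.31, 13.26 and 13.32 in ES CM, 13.88, 13.43 and 13.62 in iPS CM and 13.53, 13.49 and 13.59 in fibroblasts. It was 8.59, 10.20 and 8.57 in undifferentiated ES cells and 11.86, 9.88 and 9.79 in undifferentiated iPS cells. Undifferentiated cells were therefore not without Acta2 signal, and 1 array of each line lay at least 1 log2 unit above the other 2. EB held 10.97, 9.91 and 10.24 (ES) and 11.28, 10.45 and 12.59 (iPS), which overlapped the undifferentiated values in both lines. Flnc, encoding filamin C, an actin crosslinker of the muscle Z-disc, was at 10.23, 10.24 and 10.32 in ES CM, 9.45, 10.29 and 9.65 in iPS CM and 9.46, 9.53 and 9.94 in fibroblasts. In EB it reached 7.42, 6.59 and 6.81 (ES) and 7.49, 7.47 and 8.41 (iPS), above all undifferentiated arrays of the same line, which lay between 5.78 and 7.20.

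Membrane proteins that connect or shape the surface of muscle and mesenchymal cells followed. Cavin1 encodes a coat protein of caveolae, the small membrane pits abundant in both cell types. Its log2 intensity was 8.59, 8.49 and 8.64 in ES CM, 8.18, 8.41 and 8.32 in iPS CM and 9.36, 9.49 and 9.83 in fibroblasts, against 5.71, 5.16 and 5.37 in ES EB and 5.38, 4.72 and 5.30 in iPS EB. EB overlapped undifferentiated cells, which held 5.90, 5.74 and 5.38 (ES) and 6.30, 5.01 and 5.65 (iPS). Ncam1, a cell adhesion molecule, was detected by its probe in the set on every CM and fibroblast array and on no EB array of either line. Sspn and Sgcb encode sarcospan and beta-sarcoglycan, members of the complex that ties dystrophin to the muscle membrane, and were picked out after their values had been seen. Sspn was detected on no undifferentiated array, and reached 9.85, 9.63 and 9.73 in ES CM, 9.22, 9.69 and 9.27 in iPS CM and 8.64, 8.64 and 8.70 in fibroblasts. Sgcb stood at 8.90, 8.56 and 8.81 in ES CM, 8.55, 8.78 and 8.73 in iPS CM and 7.95, 7.82 and 7.76 in fibroblasts, so that for both genes CM lay above fibroblasts.

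The promoters of Acta2, Cavin1 and Igfbp5 (RefSeq, GRCm38.p6, 250 bases before to 50 after the gene's start, in the gene's direction) are shown because they hold CATTCC, the core of the MCAT element bound by TEAD factors in muscle genes. Capitals mark CATTCC or its reverse complement. The windows are chr19:34255324-34255623 (minus strand) for Acta2, chr11:100970568-100970867 (minus) for Cavin1 and chr1:72874816-72875115 (minus) for Igfbp5.
Acta2: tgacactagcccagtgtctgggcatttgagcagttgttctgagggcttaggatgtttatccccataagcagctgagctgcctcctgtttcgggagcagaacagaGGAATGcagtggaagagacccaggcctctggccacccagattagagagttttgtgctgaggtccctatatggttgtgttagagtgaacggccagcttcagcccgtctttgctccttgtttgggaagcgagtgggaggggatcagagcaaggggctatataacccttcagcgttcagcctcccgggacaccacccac
Cavin1: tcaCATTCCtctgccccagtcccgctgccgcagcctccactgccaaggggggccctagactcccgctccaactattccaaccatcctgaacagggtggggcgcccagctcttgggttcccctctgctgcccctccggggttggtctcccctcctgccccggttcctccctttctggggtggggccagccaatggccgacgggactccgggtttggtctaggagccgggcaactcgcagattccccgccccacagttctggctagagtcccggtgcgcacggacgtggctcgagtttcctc
Igfbp5: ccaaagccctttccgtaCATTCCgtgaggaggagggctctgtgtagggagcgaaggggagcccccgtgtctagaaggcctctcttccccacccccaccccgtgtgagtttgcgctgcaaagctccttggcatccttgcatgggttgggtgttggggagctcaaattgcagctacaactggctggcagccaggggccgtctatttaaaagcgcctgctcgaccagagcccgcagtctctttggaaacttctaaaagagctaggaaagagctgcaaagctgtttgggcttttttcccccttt
On both strands, 18 of 96 promoter windows of 60 matched member genes (18.8%) held CATTCC, beside 14.7% of all 32851 windows in the same table. For the CArG box, the site of serum response factor, the shares were 3.12% and 1.63%. Only exact matches to CCWWWWWWGG (W is A or T) were counted. The Acta2 window holds ccctatatgg and ccttgtttgg, each 1 base from that pattern, which were not counted. TATAAA stood in 7.29% and 13.6%, CCAAT in 30.2% and 37.4%, TGANTCA (the AP-1 site) in 10.4% and 7.81%, and CACGTG (the E-box) in 7.29% and 7.15%. Several windows can belong to 1 gene, so these shares are descriptions and the differences were not tested.

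Basement membrane collagen was represented by 3 genes. Col4a1 and Col4a2 encode the main chains of type IV collagen and Col4a5, on the X chromosome, a further chain. Col4a1 log2 intensity was 10.75, 10.59 and 10.47 in ES CM, 9.46, 10.19 and 10.32 in iPS CM and 11.32, 11.51 and 11.46 in fibroblasts. In EB it was 9.78, 9.73 and 10.28 (ES) and 9.08, 8.80 and 10.02 (iPS), above all undifferentiated arrays. For Col4a2 the values were 10.54, 10.53 and 10.54 in ES CM, 9.12, 9.81 and 9.51 in iPS CM and 10.46, 10.64 and 11.11 in fibroblasts. ES EB held 8.51, 8.51 and 8.35 of Col4a2 and iPS EB 7.98, 7.37 and 8.36, while ES cells held 5.66, 6.03 and 5.82 and iPS cells 7.55, 6.19 and 6.16. The first iPS array overlapped iPS EB for Col4a2. The 2 probes of Col4a5 behaved alike, the dimmer one being detected on no ES array and reaching 8.39, 8.51 and 8.52 in ES CM.

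Col4a1 and Col4a2 lie head to head on chromosome 8, and both are in the set. Their promoter windows (RefSeq, GRCm38.p6) overlap by 78 bases on opposite strands, shown in capitals: chr8:11312777-11313076 (minus) for Col4a1 and chr8:11312555-11312854 (plus) for Col4a2.
Col4a1: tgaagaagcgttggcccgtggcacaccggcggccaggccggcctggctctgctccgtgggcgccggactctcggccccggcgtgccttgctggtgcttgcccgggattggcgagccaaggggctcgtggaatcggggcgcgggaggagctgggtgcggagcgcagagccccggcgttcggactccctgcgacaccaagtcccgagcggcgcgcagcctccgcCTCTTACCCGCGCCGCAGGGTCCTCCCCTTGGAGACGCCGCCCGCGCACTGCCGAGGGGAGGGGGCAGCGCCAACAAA
Col4a2: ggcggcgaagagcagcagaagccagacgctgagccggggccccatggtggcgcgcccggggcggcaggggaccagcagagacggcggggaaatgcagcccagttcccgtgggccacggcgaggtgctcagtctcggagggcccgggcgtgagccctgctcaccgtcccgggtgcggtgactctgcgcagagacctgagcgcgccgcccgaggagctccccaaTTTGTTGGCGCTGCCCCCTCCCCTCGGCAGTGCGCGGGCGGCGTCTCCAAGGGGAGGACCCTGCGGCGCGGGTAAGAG
In all, 3 pairs of genes in the set are neighbours in the genome. The others are Tshz1 with Zadh2 and Tmem176b with Tmem176a.

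Secreted and secretory pathway members included several of its brightest probes. Serpinh1, the collagen chaperone of the endoplasmic reticulum, was at 11.56, 11.48 and 11.53 in ES CM, 11.90, 11.87 and 11.96 in iPS CM and 13.08, 12.95 and 12.64 in fibroblasts. ES EB held 11.48, 11.44 and 11.46, level with ES CM, and iPS EB 11.46, 11.27 and 11.77. A further Serpinh1 probe outside the set had group means of 5.98 in ES cells, 7.37 in ES EB and 7.90 in ES CM. Its means were 5.69, 6.98 and 7.69 at the same stages of the iPS line. Igfbp5, a secreted carrier of insulin-like growth factors, went from 5.58, 4.78 and 5.62 in ES cells to 10.07, 9.69 and 9.74 in ES EB and 12.24, 12.05 and 11.96 in ES CM, with no overlap between groups. In the iPS line it went from 6.62, 5.30 and 5.61 to 10.88, 9.52 and 10.79 in EB and 10.75, 12.08 and 11.67 in CM, where EB and CM overlapped. Ppic, a prolyl isomerase of the secretory pathway with 2 probes, rose in EB by 1.78 ± 0.17 (SE of the fit, 3 samples a group) in ES cultures and 1.17 ± 0.17 in iPS cultures on the log2 scale. Gpx8, a peroxidase of the endoplasmic reticulum with 3 probes, rose in ES EB by 1.76 ± 0.34 (adjusted p = 0.000777), while the iPS change of 0.76 ± 0.34 missed the threshold (adjusted p = 0.0911). The difference between these changes was not called. Undifferentiated iPS cells held 9.11, 7.23 and 7.515 of Gpx8, and iPS EB 9.03, 8.37 and 8.75. Furin, the convertase that cuts proproteins, was at 11.91, 11.71 and 11.81 in ES CM, 10.97, 11.49 and 11.26 in iPS CM and 10.48, 10.47 and 10.89 in fibroblasts. Its EB arrays lay from 8.34 to 9.82.

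In whole EB, most of the 117 probes stood above undifferentiated cells and below CM. Igfbp5, Nrep, 2510009E07Rik, Zfp362, Nrp1 and Smarca2 had the largest mean rise over both lines among named genes, and Cavin1, Ncam1, Emilin2 and Slc39a13 did not pass the test in either line. For ES EB against ES cells, 88 of 117 probes were called higher and 1 lower (limma, Benjamini-Hochberg adjusted p under 0.05), where 16.6% of all 21047 tested probes were higher and 16.7% lower. For iPS EB against iPS cells, 84 were higher and 2 lower, where 18.8% and 18.7% of all probes were. The median log2 change was 1.23 (ES) and 1.10 (iPS), against 0.00 and -0.01 over all tested probes. The same undifferentiated arrays helped to choose the probes as low, so nothing is read from the gap to the background. In total, 76 probes of 55 genes were higher in EB in both lines, 12 in the ES line only, 8 in the iPS line only and 21 in neither. Over all tested probes these shares were 10.2%, 6.34%, 8.58% and 74.8%. Under median scaling, which replaced the quantile step, the median of all tested probes in EB shifted by 0.25 in each line, all-probe calls turned to 19.3% higher and 1.46% lower (ES) and 22.3% and 3.17% (iPS), and 92 of the 117 were called higher in each line.

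The EB risers belong to several functional groups. Igfbp5 rose by 4.51 ± 0.39 in the ES and 4.55 ± 0.39 in the iPS line (adjusted p = 2.71e-07 and 2.52e-07). Nrep, a small intracellular protein found in mesenchymal and neural cells, was at 7.23, 7.14 and 6.99 in ES cells, 11.45, 11.07 and 11.36 in ES EB and 11.36, 11.19 and 11.32 in ES CM. It thus reached the CM level in ES EB, and rose by 4.18 ± 0.21 there and by 3.03 ± 0.21 in iPS EB. The zinc finger gene Zfp362 rose by 3.11 ± 0.21 and 2.98 ± 0.21. In the iPS line Zfp362 went from 9.75, 8.88 and 9.62 (EB) to 8.85, 9.14 and 8.74 (CM). These values overlapped, and it was the single probe of the set called lower in CM than in EB (adjusted p = 0.0461). Under median scaling, with no detection filter, or with only the compared groups in the fit, limma called 0 members lower. Nrp1, the coreceptor of semaphorins and vascular endothelial growth factor, rose by 3.00 ± 0.35 and 2.36 ± 0.35. Smarca2, an ATPase of the SWI/SNF chromatin remodelling complex, rose by 3.19 ± 0.23 and 1.94 ± 0.23. Further Smarca2 probes outside the set were dim, at means of 4.60 and 4.57 in ES cells and 4.40 and 4.805 in ES EB. 2510009E07Rik, with 2 probes, was detected by the brighter on no ES array and on 1 iPS array. Its intensity in ES EB was at least 7.14-fold that in ES cells (adjusted p = 7.87e-07), and it rose by 3.57 ± 0.32 on the log2 scale in iPS EB.

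Several members that regulate transcription or bind RNA rose in EB. Zeb1, a repressor known from the transition of epithelial to mesenchymal cells, rose by 1.78 ± 0.24 (ES) and 1.71 ± 0.24 (iPS) in EB, and its further change from EB to CM was not called in either line (adjusted p = 0.179 and 0.144). The zinc finger genes Tshz1 and Zbtb20 rose by 2.67 ± 0.26 and 2.43 ± 0.23 in ES EB, and by 2.25 ± 0.26 and 1.79 ± 0.23 in iPS EB. Celf2 and Rbms3, which bind RNA, rose by 1.51 ± 0.29 and 3.07 ± 0.37 in ES EB and by 1.76 ± 0.29 and 1.76 ± 0.37 in iPS EB. Lmo2, a LIM-domain cofactor best known from blood cells and named after its values had been seen, was at 7.81, 7.57 and 7.63 in ES EB and 8.18, 7.61 and 8.49 in iPS EB, against 5.17 to 5.72 on the 6 undifferentiated arrays. Others of this kind, also named after their values had been seen, did not rise in both lines. Macroh2a1, which encodes a histone variant, changed by 0.46 ± 0.30 (ES) and -0.20 ± 0.30 (iPS; adjusted p = 0.27 and 0.653). These values are of its probe in the set. Brighter Macroh2a1 probes outside the set had group means of 9.54 and 9.68 in ES cells. They were lower in ES CM (9.02 and 8.66) and in fibroblasts (8.97 and 8.93). The brighter of 2 probes of the splicing regulator Mbnl2 changed by 0.77 ± 0.25 and -0.12 ± 0.25 (adjusted p = 0.0257 and 0.761).

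Other members stayed low in EB. Cavin1 changed by -0.26 ± 0.25 in ES cultures and -0.52 ± 0.25 in iPS cultures (adjusted p = 0.473 and 0.116). Emilin2, a matrix glycoprotein of elastic fibres with 2 probes, changed by -0.20 ± 0.15 and -0.29 ± 0.15, and Slc39a13, a zinc transporter, by -0.00 ± 0.16 and 0.14 ± 0.16. Under median scaling, Slc39a13 in iPS EB was called higher. Ampd3, AMP deaminase, fell in ES EB by 0.63 ± 0.20 on the log2 scale (adjusted p = 0.0196). Its probe was detected on no iPS EB array, where it was at least 1.81-fold lower than in iPS cells (adjusted p = 0.00197). Neither fall was called under median scaling. Slc44a1, a choline transporter, fell in iPS EB by 0.46 ± 0.16, again not under median scaling. For several genes, among them Ncam1, Slc44a1, Nrp1, Rspo3, Macroh2a1, Smarca2 and Ypel5, other probes of the gene behaved differently. Ncam1 had another probe with group means of 6.12 in ES cells, 7.81 in ES EB and 7.73 in ES CM. Slc44a1 had another with means of 8.61 in ES cells and 5.59 in ES CM, and of 8.95 in iPS cells and 5.90 in iPS CM. The flat Ncam1 pattern in EB is therefore that of its probe in the set, not of the gene.

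From EB to selected CM nearly all members rose further. In the ES line 110 probes were higher in CM than in EB and 0 lower, where 31.3% and 31% of all tested probes were. At an unadjusted p under 0.05 limma gave the same 110 and 0. For the iPS cultures the counts were 105 and 1, where 28.5% and 29.6% of all probes were. The median log2 change was 1.97 (ES) and 1.90 (iPS). The CM arrays were among those that chose the probes, so nothing is read from the gap to the background. Furin rose by 3.35 ± 0.19 and 1.90 ± 0.19, Flnc by 3.32 ± 0.29 and 2.00 ± 0.29, and Sspn by 4.39 ± 0.15 and 4.11 ± 0.15. Ncam1 intensity in CM was at least 8.43-fold (ES) and at least 9.71-fold (iPS) that in EB. Serpinh1 (0.06 ± 0.23 and 0.41 ± 0.23), Col4a1 (0.67 ± 0.33 and 0.69 ± 0.33) and Smarca2 (0.08 ± 0.23 and 0.23 ± 0.23) were not called in either line, though Col4a1 was in the ES line under median scaling. In all, 63 probes rose at both steps in both lines, where 3.73% of all tested probes did. The undifferentiated and CM arrays at the ends of these steps chose the probes, so nothing is read from this gap either.

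How far EB lay on the way to CM was read on a linear intensity scale that runs from 0% (mean of the undifferentiated cells) to 100% (mean of the CM). The median member stood in EB at 16.9% ± 3.33 (ES) and 16.3% ± 5.36 (iPS; SD, n = 3 each). A CM-only set of 370 probes was chosen by CM levels at least 2 log2 units above undifferentiated cells and above fibroblasts. These probes stood at 1.87% ± 1.05 and 2.54% ± 1.21. Fibroblasts were not bounded against undifferentiated cells for them. As a description, fibroblasts exceeded ES cells at 61 of the 370 and lay below them at 51. Against iPS cells these counts were 59 and 41. Per EB sample the members' median was 18.95%, 13.1% and 18.8% (ES) and 18.1%, 10.2% and 20.5% (iPS). The CM-only median was 1.09% to 3.89%, lower in all 6. The undifferentiated and CM arrays set the ends of this scale and also chose both sets. From undifferentiated cells to CM the median log2 rise of CM-only probes was 3.78 (ES) and 3.82 (iPS). For the members it was 3.24 and 2.78. Nothing is therefore read from the gap between the sets. The members' lower quartile ran from 1.51% (second iPS EB sample) to 10.1% and their upper quartile from 22.2% to 43.0%, while the CM-only upper quartile ran from 4.19% to 10.2%. Summed intensity of the cardiomyocyte marker genes in those samples was 15198, 6041 and 8037 (ES) and 7595, 5500 and 13868 (iPS). For the fibroblast marker genes it was 3464, 2975 and 3317 (ES) and 1526, 1109 and 2380 (iPS). The second EB sample of each line was thus lowest for the members and for both marker sums, and the part of cell composition in the members' level was not tested. In bulk samples, fewer cells of a type and less RNA per cell cannot be told apart. The level differed widely between members: 7 probes stood above 50% in both lines and 28 stood below 10% in both. By their probes in the set, Serpinh1 was at 94.9% (ES) and 69.1% (iPS), Nrep at 101% and 66.5%, and Smarca2 at 93.8% and 85.2%. Acta2 was at 7.9% and 13.6%, Flnc at 5.18% and 15.5%, and Sspn at 2.65% and 3.23%.

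The comparison of iPS EB with ES EB used no array that chose the probes. Prnp, Cd59a, Aph1b, Eml1, Celf2 and Osbpl5 were higher in iPS EB, and Aldh1l2, Ampd3, Htra1, Rnf103, Ypel5 and Zbtb20 lower. In all, 17 of 117 probes were called higher and 10 lower, where 12.8% and 12.9% of all tested probes were, so the share was close to the background. The median difference was 0.12, against 0.01 over all probes. Prnp, the prion protein gene, was at 10.44, 10.26 and 10.88 in iPS EB and 9.35, 9.23 and 9.17 in ES EB, with no overlap, a difference of 1.28 ± 0.25 (adjusted p = 0.00125). Cd59a, an inhibitor of complement held on the membrane by a lipid anchor as is the prion protein, was higher by 1.22 ± 0.22, Aph1b, a subunit of gamma-secretase, by 1.09 ± 0.20, and Eml1, a microtubule-binding protein, by 1.05 ± 0.20. Celf2 was higher by 0.95 ± 0.29 (adjusted p = 0.0203) and Osbpl5, a lipid transfer protein, by 0.91 ± 0.21. Marker sums of other cell types also differed between these EB samples without overlap. Summed intensity of 14 pluripotent cell markers was 8805 to 19710 in iPS EB and 19971 to 32954 in ES EB, that of 7 epithelial markers 3096 to 3836 and 599 to 2614, and that of 10 endothelial markers 619 to 881 and 981 to 1503. At least 13 of the 14 pluripotent markers were detected on each of these arrays. The part of these cell types in the members' differences was not tested. For Prnp and Cd59a the undifferentiated iPS cells were also higher than ES cells, by 0.80 ± 0.25 and 1.06 ± 0.22.

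Aldh1l2, a mitochondrial enzyme of folate metabolism, was at 5.12, 4.79 and 5.24 in iPS EB and 5.24, 6.96 and 7.30 in ES EB. The groups overlapped, since the first ES EB sample lay with the iPS EB samples, and the difference was -1.45 ± 0.35 (adjusted p = 0.00604). Htra1, a secreted serine protease with 2 probes, differed by -0.95 ± 0.25, and Rnf103, a ubiquitin ligase of the endoplasmic reticulum, by -0.81 ± 0.16. Ypel5 differed by -0.70 ± 0.16 and Zbtb20 by -0.67 ± 0.23 (adjusted p = 0.0405). A further Ypel5 probe outside the set had group means of 7.55 in iPS EB and 7.62 in ES EB. Ampd3 was at least 1.91-fold lower in iPS EB, where it was under detection. Under median scaling 9 probes were higher and 1 lower, where 6.50% and 3.77% of all probes were. Prnp, Cd59a, Aph1b, Eml1, Osbpl5 and Aldh1l2 kept their calls, while Celf2, Ampd3, Htra1, Rnf103, Ypel5 and Zbtb20 lost theirs. Without the second ES EB sample 10 were higher and 7 lower, without the first iPS EB sample 13 and 13, and without the second iPS EB sample 30 and 5.

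In selected CM, Rspo3 and Il13ra1 had higher values in the iPS line and Prkca, Rbms3, Col4a2 and Tshz1 lower ones. The CM arrays chose the probes, so these differences are a description, given with the SE of the fit and no p-value. Apart from Col4a1, the genes named for this comparison were picked by size among members called in the fit. In the fit across all probes 7 members lay above and 13 below at the threshold, beside 11.4% and 11.8% of all probes, and nothing is read from these counts. The median difference was 0.04. Rspo3, a secreted enhancer of Wnt signalling, was at 8.82, 10.17 and 10.04 in iPS CM and 8.19, 7.91 and 7.92 in ES CM, with no overlap (difference 1.67 ± 0.34). A further Rspo3 probe outside the set had group means of 9.96 in iPS CM, 7.81 in ES CM and 6.08 in fibroblasts. Il13ra1, an interleukin 13 receptor chain encoded on the X chromosome, was at 9.31, 9.29 and 9.10 in iPS CM and 7.77, 7.51 and 7.60 in ES CM (difference 1.61 ± 0.18). Uba7, the activating enzyme of the ubiquitin-like protein ISG15, and Cd59a were higher by 0.74 ± 0.23 and 0.65 ± 0.22.

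Prkca, protein kinase C alpha, was at 7.95, 8.12 and 8.06 in iPS CM and 9.39, 9.36 and 9.54 in ES CM, a difference of -1.38 ± 0.20 with no overlap. The fibroblast arrays, at 8.40, 8.29 and 7.94, lay near the iPS CM values. Rbms3 differed by -1.35 ± 0.37, Col4a2 by -1.05 ± 0.30 and Tshz1 by -1.03 ± 0.26. For Col4a1 the difference was -0.61 ± 0.33, and whether it differs from that of Col4a2 was not tested.

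Undifferentiated iPS and ES cells both chose the probes as dim, so their differences too are a description. The median difference was 0.30. At the threshold of the fit 26 members lay above and 3 below, beside 9.47% and 10.1% of all probes, and nothing is read from these counts. Tmem176b and Nrep were higher in iPS cells by 1.56 ± 0.33 and 1.09 ± 0.21. The iPS sample of replicate 1 stood apart: the median log2 intensity of the 117 probes was 6.67 there, 5.83 and 5.85 in the other 2 and 5.61 to 5.68 in ES cells. It exceeded all ES samples for 84 members, the others for 46 and 45, while of all tested probes each of the 3 exceeded all ES samples for 29.2% to 29.6%. Its summed fibroblast marker intensity was 3298, against 1174 and 1228 in the other iPS samples and 870 to 962 in ES cells. Of the 17 fibroblast markers 13 were detected there, 11 and 12 in the other iPS samples and 8 to 11 in ES cells. Without the iPS sample of replicate 1, the counts at the threshold were 13 and 3. The part of feeder RNA was not tested.

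The rise into EB differed between the lines for 8 probes, all smaller in the iPS line, where 3.12% of all probes had a larger and 3.73% a smaller rise there. At an unadjusted p under 0.05, limma gave 23 smaller and 6 larger. The undifferentiated arrays in this comparison helped to choose the probes. Leaving out the iPS sample of replicate 1 gave 1 larger and 4 smaller. Irf2, Smarca2 and Prkca were among the 8, by -1.14 ± 0.27, -1.26 ± 0.33 and -0.97 ± 0.28 (adjusted p = 0.0158, 0.0266 and 0.0488). Prkca was detected on no ES array, so the size of its difference depends on values under detection. Under median scaling limma called none of the 8 (15 members at an unadjusted p under 0.05).

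Function lists that hold members of the set gave mixed counts when all their probes were taken. The counts include the member probes: 5 contractile, 2 collagen, 1 processing, 2 adhesion and 3 matrix probes. The rule chose these as higher in CM and fibroblasts than in undifferentiated cells. That part of the higher counts in CM and fibroblasts was therefore fixed in advance, and these counts are a description. On the list of 27 contractile and smooth muscle type cytoskeletal genes, which includes Acta2 and Flnc, 44 probes were tested: 18 were higher and 11 lower in ES CM than in ES cells (33.2% and 33% of all probes), with a median change of -0.02. In fibroblasts 33 were higher and 1 lower than in ES cells (27.2% and 28.7% of all), with a median of 1.52. Among 21 probes of fibrillar and basement membrane collagens, including Col4a1 and Col4a2, 3 were higher and 5 lower in ES CM, while fibroblasts had 18 higher and 0 lower (limma; 1 lower at an unadjusted p under 0.05). For the 36 probes of collagen and elastin processing, which include Serpinh1, the counts were 14 higher and 13 lower in ES CM, and 28 and 0 in fibroblasts (0 lower also unadjusted). On the list of integrins, adhesion and caveolae, with Cavin1 and Ncam1, 21 of 46 probes were higher and 5 lower in ES CM, and 40 and 0 in fibroblasts (0 lower also unadjusted). Of 65 probes of matrix glycoproteins and matricellular proteins, including Igfbp5, 10 were higher and 21 lower in ES CM, and 52 and 1 in fibroblasts. In ES EB these matrix probes gave 25 higher and 9 lower, and in iPS EB 17 higher and 15 lower. Transcription factors of mesoderm and mesenchyme, with Zeb1 as the member, gave 34 higher and 7 lower of 75 probes in ES EB and 27 and 12 in iPS EB. Of 28 oxidative stress and detoxification probes, 3 of them for Gpx8, 4 were higher and 10 lower in ES EB. In iPS EB 2 were higher and 12 lower.

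Membership rests on thresholds in a continuous range, given here on the scale of the rule (quantile-normalized log2 intensity without background correction). Just inside were Rassf8 (2.04) and Zeb1 (2.05) for ES CM above ES cells, Slc44a1 and Rbms3 (both 2.01) for iPS CM above iPS cells, and Ypel5 (2.00) and Atraid (2.01) for fibroblasts above ES cells. Rnf11 (2.00) and Micu2 (2.04) were just inside for fibroblasts above iPS cells. The widest gaps between CM and fibroblasts inside were those of Col4a5 (1.38) and Serpinh1 (1.37) in the ES line and of Col4a1 (1.43) and Nrep (1.25) in the iPS line. Just outside, each failing 1 criterion, were a further Celf2 probe (1.96) and Creg1 (1.91), H1f2 (1.99) and a further Wls probe (1.91), Cst3 (1.99) and a further Atraid probe (1.95), a further Sh3kbp1 probe (1.99) and Snx24 (1.98). By distance from fibroblasts, Hspb6 and Lhfp (both 1.58), Fhl2 (1.93) and a probe without a symbol (1.74) fell outside. The array held 79 further probes of the 80 genes. Of the 48 that could be tested, 20 were at least 1 log2 unit higher in CM and fibroblasts than in undifferentiated cells of both lines. Of the 34 genes with such a tested probe, 21 had at least 1 that was not.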

How the data were processed

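Total RNA of 21 samples was amplified by MessageAmp (Ambion), per the labels' protocols, and hybridised to Illumina arrays. The table deposited by the authors holds 2 columns per array: mean bead intensity, linear, and a detection p-value. The lowest intensity is 14.97 and array medians run from 23.6 to 33.2, so the intensities are neither background subtracted nor normalized. No label or header names the software. A second deposited table of normalized intensity lists the same values under other identifiers (3 of 45281 rows agree). By the identifiers of the first table, 18 of 27 pluripotent, 26 of 47 cardiomyocyte and 19 of 36 fibroblast marker probes differed by at least 2 log2 units in the marker's direction, by those of the second 0, 0 and 0. The first table's identifiers were therefore named through the platform annotation, which pairs 34903 probes with genes.

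Normalization and tests were run in R 4.3.3 by limma 3.58.1, with neqc (background by normexp, offset 16, quantile normalization, log2), so that differences of dim probes are understated. Probes detected at p under 0.01 on at least 3 arrays, 21047, were fitted with lmFit and eBayes on 19 samples (fibroblast arrays averaged, 12 residual degrees of freedom), and p-values adjusted over all of them by Benjamini-Hochberg. All 117 members passed this filter. A fold against a group with no detected array is a bound: there each array's value was raised to its lowest detected probe where it lay below that, and the mean taken against the bright group. The averaged fibroblast sample is assumed to vary like the other groups. The number of arrays limits the precision. Design text calls groups other than fibroblasts independent biological replicates. EB and CM of the same batches were taken and same-numbered samples share a passage, so replicate numbers pair samples within a line. Deviations of same-numbered samples correlated from -0.18 to 0.22 (5 of 18 pairs over 0.1). The fit was tested on simulated data.

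The members and gene lists were chosen with earlier results of these data known. Genes named are the brightest members, those with the largest and smallest EB changes, those with the largest called differences between lines in EB and in CM, members on the gene lists, and those next to each threshold. Alternatives covered background, scaling, filter, samples, variance prior, pairing, membership and each sample left out.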

Additional observations from a re-analysis of the deposited data

Results flagged for a closer look

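For 8 members the log2 change from undifferentiated cells to EB differed between the lines by the fitted interaction, each with a smaller rise in the iPS line. The undifferentiated arrays helped to choose the probes as dim, so nothing is read from this count. The called share was 6.8% of members, beside 6.85% of all probes. Under median scaling limma called 0 members (15 at an unadjusted p under 0.05). The iPS minus ES difference of the change was -2.16 for Tmem176b, a membrane protein gene (adjusted p = 0.0106), and -1.90 for the unnamed probe ILMN_2636004. It was -1.48 for Inafm2, -1.26 for Smarca2, -1.15 for Nrep, -1.14 for Irf2, -1.04 for Rnf103 and -0.97 for Prkca.

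The level in undifferentiated cells was higher in iPS than in ES cells by 1.56 for Tmem176b, 1.21 for Inafm2, 1.20 for ILMN_2636004 and 1.09 for Nrep. Tmem176b was at 7.42, 5.90 and 6.04 in iPS cells and 5.35, 4.94 and 4.40 in ES cells, so that the iPS sample of replicate 1 was the highest. In EB it was at 7.25, 6.71 and 7.85 (iPS) and 8.03, 7.60 and 7.98 (ES), which overlapped. Rnf103 is the member of the 8 whose undifferentiated levels were closest (difference 0.23), with EB at 7.14, 7.16 and 7.62 (iPS) and 8.36, 7.95 and 8.04 (ES). The part of the feeder cells was not tested.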

How the results depend on the processing

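Values here are the percent of members called in either direction, with that of all tested probes in brackets, unless said otherwise. The EB rise (main 76.1% ES, 73.5% iPS), CM against EB (94% and 90.6%) and the EB level (16.9% and 16.3%) stayed within 1.5 times or within the replicate spread under all alternatives run. For iPS EB against ES EB (main 23.1%, all 25.7%), median scaling gave 8.5% (all 10.3%), members at least 3 above undifferentiated 5.6%, and leaving out 1 sample 14.5% (the second ES EB sample, all 17.4%) to 29.9% (the second iPS EB sample, all 25.6%). For iPS against ES CM (17.1%, all 23.2%), median scaling gave 6% (all 8.12%), no detection filter 9.4% (all 10.3%), only the compared groups 28.2% (all 26.3%), members at least 3 above 5.6%, and leaving out 1 sample 11.1% (the second ES CM sample, all 16.6%, or first iPS CM sample, all 20.4%) to 14.5%. For undifferentiated iPS against ES cells (24.8%, all 19.6%), an offset of 50 gave 13.7% (all 18.7%), median scaling 1.7% (all 3.61%), no filter 12.8% (all 7.87%), only the compared groups 7.7% (all 12.3%), members at least 3 above 11.1%, and leaving out 1 sample 13.7% (the first iPS sample, all 14.9%; 15.4% without the third ES sample, all 15.6%) to 27.4%. For the difference of the EB change (6.8%, all 6.85%), the values were 4.3% at an offset of 50 (all 6.43%), 0% under median scaling (limma; 15 probes at an unadjusted p under 0.05; all 1.22%), 2.6% with no filter (all 2.23%), 0.9% with only the compared groups (all 3.25%), 0% for members at least 3 above (2 of 18 unadjusted), 4.3% for members with CM within 1 of fibroblasts, and 3.4% (without the third ES EB sample, all 4.58%) to 11.1% (without the first ES EB sample, all 10.1%), with 4.3% without the first iPS (all 5.40%) and 10.3% without the third iPS EB sample (all 6.13%). The 117 members became 277 at a threshold of 1.5, 18 at 3 and 365 under median scaling, which kept 102 of the 117. The cause was not tested. With the replicate block for the pairing, the shares were 77.8% and 77.8% for the EB rise and 94% and 92.3% for CM against EB, 23.1%, 17.1% and 24.8% between the lines and 6.8% for the difference of change, and the consensus correlation was 0.0148. Of 180 called differences of named members, 133 kept their call under all 10 alternatives other than leaving out a sample; 35 were lost under median scaling, 27 with only the compared groups, 24 with no detection filter and 9 at an offset of 50, and 0 changed direction. Dim probes limit what can be said of undifferentiated cells: 16 members were detected on no ES array and 8 on no iPS array.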

Other observations

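The MHC class I and interferon list held no member of the set. Of its 26 tested probes, ES CM lay below ES cells at 17 and above at 1 (median change -1.54), and iPS CM lay below iPS cells at 18 and above at 1 (median -1.67). Over all tested probes the shares were 33% lower and 33.2% higher (ES) and 33.6% and 32.7% (iPS). Fibroblasts exceeded ES cells at 19 of the 26 and lay below them at 2 (median 0.85), where 27.2% and 28.7% of all probes did. On the list of lysosome and endosome genes, also without a member, ES CM exceeded ES cells at 20 of 38 probes and lay below at 6 (median 0.48), while iPS CM exceeded iPS cells at 13 and lay below at 7 (median 0.02). Fibroblasts exceeded ES cells at 25 and lay below at 0 (limma; 1 at an unadjusted p under 0.05). For 613 probes detected on all fibroblast arrays, fibroblasts lay at least 2 log2 units above undifferentiated cells and above CM of both lines. CM were not bounded against undifferentiated cells for them. These probes gave 191 rises and 51 falls from ES cells to ES EB, beside 16.6% and 16.7% of all probes. In the iPS line the same step gave 80 rises and 151 falls, where 18.8% and 18.7% of all did. Without the iPS sample of replicate 1, whose fibroblast marker sum was 3298 against 1174 and 1228, they gave 97 rises and 111 falls, beside 16.8% and 17.4% of all probes. The undifferentiated, CM and fibroblast arrays chose these 613 probes.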
